A study of Rattus norvegicus with 24 samples.

Results

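The array held probes for 6 *Clec* genes, the genes whose name is *Clec* followed by a number. *Clec4d*, *Clec4f* and *Clec11a* carry that name in the scanner files. *Clec1b*, *Clec2d* and *Clec2d11* were found through the symbols of the study's list of natural killer complex (NKC) genes, since the files call them RGD1563517, Ocil and RGD1563148. Each of the 6 genes had 1 probe, out of 8453 distinct probes on the array. The members were taken by name and not by a threshold on measured values, although earlier results of these data were known.

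The RNA came from skin explants of 12 male BN rats aged 15 weeks, cut from the paw and freed of subcutaneous fat. One explant of each rat was cultured for 3 days with syngeneic BN lymphocytes, and the other with allogeneic PVG lymphocytes that had been pre-stimulated against BN cells. Both lymphocyte populations came from an MLR (mixed lymphocyte reaction) of 7 days, in which the BN cells of the control had met irradiated BN cells. The 2 RNA samples of a rat were hybridized together to 2 two-color arrays with exchanged dyes, which gave 24 arrays on 3 slides. The comparison asks which genes change during a graft-versus-host reaction (GVHR) of the skin, and it is made within rats with n = 12.

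C-type lectins share a fold that in many members binds sugars, and in others binds proteins or lipids. *Clec1b* encodes CLEC-2, a receptor of platelets and megakaryocytes whose ligand is podoplanin and which signals through the kinase Syk. *Clec4d* encodes a receptor of macrophages and neutrophils (MCL) for mycobacterial glycolipid, which pairs with its neighbor Mincle, the product of *Clec4e*. *Clec4f* encodes a galactose-binding receptor best known from the macrophages of the liver. *Clec11a* encodes a secreted growth factor of bone and bone marrow. *Clec2d* and *Clec2d11* encode surface ligands of the NKR-P1 receptors of natural killer (NK) cells. The name "myeloid and platelet lectins" therefore describes the first 3 genes and not the other 3.

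The probes are 60-mers, and their positions are those that the files give on the rn3 build of the rat genome. The probes of *Clec1b* (chr4:166924370-166924429, plus strand), *Clec2d* (chr4:166253845-166253904, plus strand) and *Clec2d11* (chr4:166668136-166668195, plus strand) lie in the NKC. The probe of *Clec4d* (chr4:160137475-160137534, plus strand) lies on the same chromosome, 11.3 kb from that of *Clec4e*. The probe of *Clec4f* is at chr4:118084401-118084460 on the minus strand, and that of *Clec11a* at chr1:94863507-94863566 on the minus strand. The following sequences are shown because the results turn on the first 2 probes, and because the identity of the third is shared. Capitals mark the longest run of bases that also occurs in the probe of another gene on the array, and of the *Clec4d* probe the first 30 bases are given with no capitals.
*Clec1b*: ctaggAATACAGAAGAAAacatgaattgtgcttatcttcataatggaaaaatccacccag
*Clec4d*: tgtaagttacctggagcaacatttgattgg
*Clec2d11*: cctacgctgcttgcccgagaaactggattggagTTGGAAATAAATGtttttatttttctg
The longest shared run was 13 bases for the *Clec1b* probe, with a probe of *Cdk2ap1*, and 12 bases for the whole *Clec4d* probe. The *Clec2d11* probe also shared 13 bases, with a probe of *Ly6d*. The study's list gives the last probe to *LOC689800* as well, and RefSeq (GRCr8) now calls the gene *Clec2g*, so that its value may belong to more than 1 gene.

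Before the results, 2 rats have to be named that stood apart over all probes. The log2 ratios of rat 8 correlated with those of the other rats at no more than 0.241, although its own 2 arrays correlated at 0.944. The 2 arrays of rat 10 correlated at only 0.133, the lowest value. Those of rats 3, 6 and 2 were also low, at 0.201, 0.264 and 0.304. The first array of rat 10 was the brightest of all. Its median intensity was 6668 in Cy3 and 25642 in Cy5, against medians over arrays of 179 and 353. The member results are therefore also given without rats 8 and 10.

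Of the 6 *Clec* genes, 2 changed, both with less signal in the samples labeled as allogeneic, and 4 did not pass the test (limma, adjusted p under 0.05 over all probes). Over the whole array, 17.3% of the probes passed, 8.48% as lower and 8.78% as higher. The mean log2-fold change of allogeneic over syngeneic was -0.38 ± 0.29 for *Clec1b* and -0.47 ± 0.32 for *Clec4d* (SD, n = 12). The signs follow the dye labels and the dye assignment of the methods, and they are opposite to those of the study's own tables and of its qRT-PCR of some of the same samples. For several genes the study's qRT-PCR of independent explants and of skin from transplanted rats also ran opposite to these signs. The files do not settle whether the dye labels are exchanged. Lower and higher are therefore meant throughout by the dye labels, and with the sign turned each value called lower reads as higher in the allogeneic explants. The median log2-fold change of all probes was 0.01. In whole tissue, fewer cells of a type and less RNA per cell cannot be told apart.

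**Figure D1:**
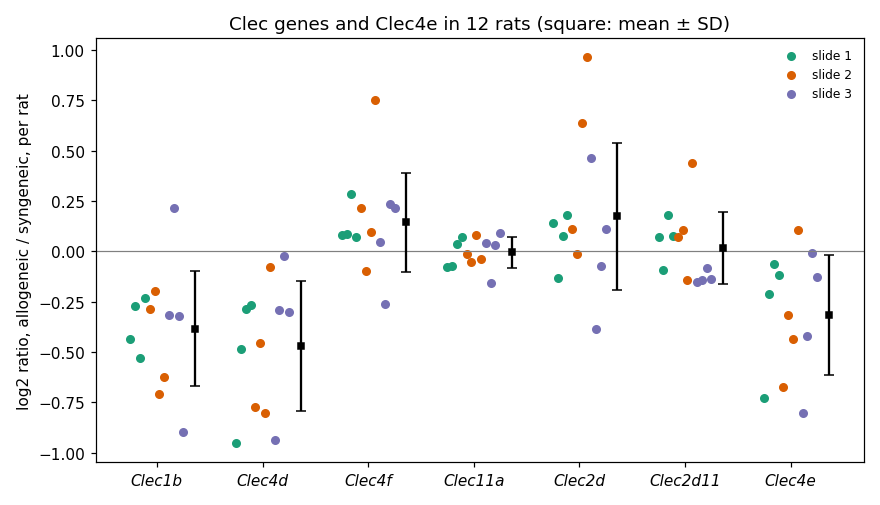
Log2 ratio of allogeneic over syngeneic explant in each of 12 rats for the 6 *Clec* genes and for *Clec4e*; points are rats, colored by slide, and squares with bars are means ± SD. The *Clec1b* points lie below 0 in 11 rats and the *Clec4d* points in 12, while those of the other 4 *Clec* genes lie on both sides of 0.

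The ratio of *Clec1b* was -0.90 in the lowest rat (rat 12), -0.32 in the median and 0.21 in the highest (rat 10). It was lower in 11 of 12 rats, and both arrays of every rat had the same sign. The adjusted p was 0.0047 by limma, and the exact two-sided permutation of the signs over the 12 rats gave p = 0.00146. The mean corresponds to 1.30-fold less signal, with a 95% interval of the log2 value from -0.56 to -0.20.

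The normalized level of *Clec1b* (log2, mean of 2 arrays) was 6.33 in the lowest syngeneic explant, 6.57 in the median and 7.07 in the highest. In the allogeneic explants the lowest was 6.07, the median 6.16 and the highest 7.10. The allogeneic levels of 11 rats lay below the lowest syngeneic level, and the level of rat 10 lay above the highest, so that the groups overlapped through this rat.

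The *Clec1b* signal was weak. In the syngeneic channel it was well above background on 12 of 24 arrays, namely on both arrays of rats 1, 2, 7, 8 and 12 and on 1 array each of rats 10 and 11. In the allogeneic channel it was well above background on 1 of 24 arrays. This was the bright first array of rat 10, and on it the log2 ratio was 0.38, with more signal in the allogeneic sample. It was also the array that measured both samples above background, and no other did. A filter that keeps probes with 12 such arrays therefore just kept *Clec1b*, and through the syngeneic side.

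For so dim a probe the size of the change followed the background correction. With the reported offset of 50 it was -0.38, with an offset of 16 it was -0.75, with the processed signals of the scanner software -2.06, and in the authors' series table -1.94. The direction and the call were the same in each, and all of them rest on the same dye labels. No size of the *Clec1b* difference held across them. Without rats 8 and 10, chosen after seeing the data, the value was -0.42 (adjusted p = 0.00121, limma). Within slides 1, 2 and 3, with 4 rats on each, the mean was -0.37, -0.45 and -0.33.

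**Figure D2:**
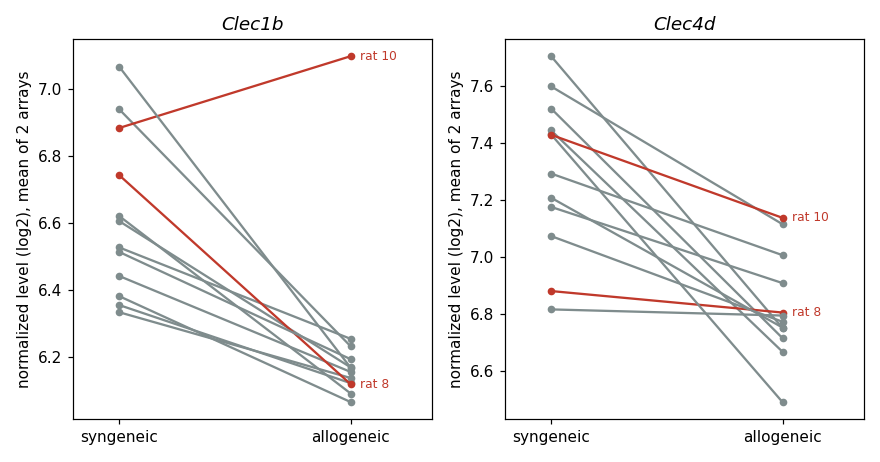
Normalized log2 levels of *Clec1b* and *Clec4d* in the syngeneic and the allogeneic explant of each rat, joined by a line; rats 8 and 10 are in red. Lines fall in 11 rats for *Clec1b*, all but rat 10, and in 12 for *Clec4d*.

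*Clec4d* was well above background on 24 arrays in the syngeneic channel and on 21 in the allogeneic one, far more than *Clec1b*. Its ratio was -0.95 in the lowest rat (rat 1), -0.38 in the median and -0.02 in the highest (rat 11). It was negative in 12 of 12 rats, although in rats 8, 10 and 11 the 2 arrays differed in sign, with 0.11 on the bright array of rat 10 and -0.70 on its other array. The exact permutation p of 4.88e-04 is the smallest that 12 rats allow. By limma the adjusted p was 0.00298. The mean corresponds to 1.39-fold less signal in the allogeneic samples.

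The *Clec4d* level (log2) was 6.82, 7.36 and 7.70 in the lowest, median and highest syngeneic explant, and 6.49, 6.78 and 7.14 in the allogeneic explants. The syngeneic levels of 9 rats exceeded every allogeneic level, and the ranges overlapped in the rest. The *Clec4d* ratio was close to 0 in rats 8 and 11, at -0.08 and -0.02, and their *Clec1b* ratios were -0.62 and -0.32. With the processed signals the mean was -1.11, in the series table -0.95, and without rats 8 and 10 it was -0.53 (adjusted p = 0.0022, limma). The means within the 3 slides were -0.50, -0.53 and -0.39.

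Both genes were lower in 11 of the 12 rats, all but rat 10, but the sizes did not track each other, since over the 12 rats the ratios correlated at 0.03. With the offset of 50 the *Clec1b* value less that of *Clec4d* was 0.09, with a 95% interval from -0.18 to 0.36. This difference followed the background correction too, since with the processed signals *Clec1b* had -2.06 and *Clec4d* -1.11.

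*Clec4f* was 0.14 ± 0.24 and did not pass (adjusted p = 0.168, limma), although it was higher in 10 of 12 rats. Its lowest value was -0.26 in rat 10, its median 0.09 and its highest 0.75 in rat 8. The value moved with the dyes. It was 0.26 where Cy5 marked the allogeneic sample and 0.03 where Cy3 did, a difference seen in 11 of 12 rats (adjusted p = 0.00856, limma over all probes). On the Cy5 arrays alone *Clec4f* passed (adjusted p = 0.0288), and it also passed without rats 8 and 10, at 0.12 (adjusted p = 0.022).

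*Clec2d* was 0.17 ± 0.36 (adjusted p = 0.267, limma), from -0.39 in rat 10 over a median of 0.11 to 0.96 in rat 8. The same rats thus marked both ends for *Clec4f* and *Clec2d*. *Clec2d* differed most between the dyes, with 0.34 in Cy5 and 0.00 in Cy3, again in 11 of 12 rats (adjusted p = 2.5e-04, limma). On the Cy5 arrays alone it passed (adjusted p = 0.0303). Such dye differences were common, since 52% of all probes passed the same test, and the averaging of both arrays of a rat removes them from the reported mean. *Clec1b* and *Clec4d* did not differ detectably between the orientations, by -0.01 each (adjusted p = 0.804 and 0.9, limma).

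*Clec11a* and *Clec2d11* varied least. *Clec11a* was 0.00 ± 0.08 (adjusted p = 0.916, limma), between -0.16 and 0.09, with 6 rats on each side of 0. Its 95% interval, from -0.05 to 0.04, covers small changes only. A probe for the transcript TC536177, which the files describe as the stem cell growth factor and which lies 1.13 kb from the *Clec11a* probe, had -0.02 ± 0.10. *Clec2d11* was 0.02 ± 0.18 (adjusted p = 0.863, limma), from -0.15 to 0.44, the highest again in rat 8. These 2 genes, *Clec4f* and *Clec2d* were well above background in both channels on all 24 arrays.

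Left out by the rule were 3 related genes that RefSeq now names *Clec* but the files name otherwise, *Clec4e* (Clecsf9), *Clec4b2* (Aplra1) and *Clec2d2l3* (LOC500331). *Clec4e*, the neighbor and partner of *Clec4d*, also had less signal in the allogeneic samples, at -0.32 ± 0.30 (adjusted p = 0.0173, limma) and in 11 of 12 rats. It was well above background on 19 arrays in the syngeneic and 12 in the allogeneic channel. *Clec4b2* had -0.03 ± 0.06 (adjusted p = 0.363) and *Clec2d2l3* 0.00 ± 0.14 (adjusted p = 0.959). The probes of *Clec4b2* and *Clec4d* lie 125.2 kb apart.

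Among 6401 genes with a probe well above background on at least 12 arrays, the per-rat ratios of *Clec4d* were most similar to those of *Or5b123b* (Pearson r = 0.92), *Clec4e* (0.92) and *Sstr4* (0.92). *Or5b123b* encodes an olfactory receptor and *Sstr4* a somatostatin receptor. For *Clec4e* r was 0.85 without rats 1 and 9, the farthest from the median of *Clec4d*, and 0.95 without rats 8 and 10. The most similar genes to *Clec1b* were *Itgb3* (0.91), *Or4c112* (0.90), *Zbtb16* (0.88), *Homer3* (0.87) and *Or7r1* (0.86). *Itgb3*, the integrin subunit of the platelet fibrinogen receptor, was averaged over 6 probes. Of these, 4 had less signal in the allogeneic samples, at -0.21 to -0.13, and correlated with *Clec1b* at 0.81 to 0.92. The other 2, at 0.03 and 0.06, did not pass and correlated at -0.15 and 0.02. Without rats 10 and 12, the farthest from the median of *Clec1b*, r with the mean of *Itgb3* was 0.84. These are the highest values of many, over 12 rats, with both genes of a pair read on the same arrays, and they are given as a description.

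**Figure D3:**
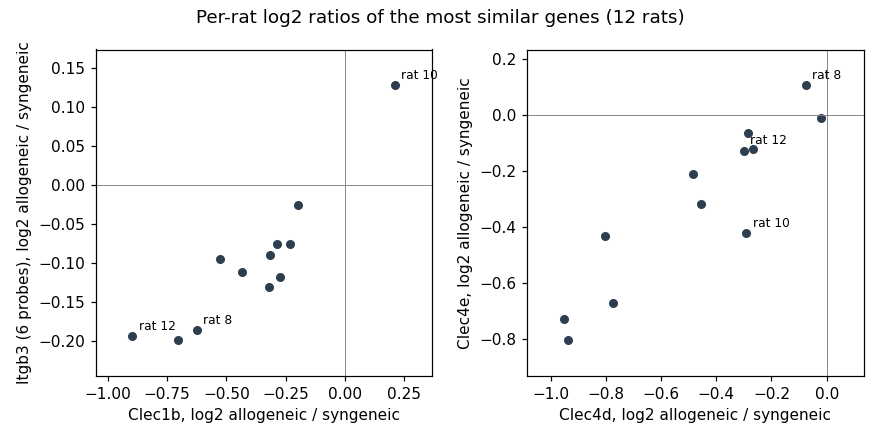
Per-rat log2 ratios of *Clec1b* against the mean of 6 *Itgb3* probes (left) and of *Clec4d* against *Clec4e* (right), 12 rats each, with rats 8, 10 and 12 named. Both clouds run from lower left to upper right (r = 0.91 and 0.92), and rat 10 is the highest point on the left.

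A list of kinases, adaptors and ligands of Clec receptor signalling in general was also read. That each of its genes acts with the receptors named here was not tested. The lists share some genes, since *Tyrobp* is also in the macrophage list and *Pdpn* in the endothelial one. Of 30 measured genes, 11 had less signal in the allogeneic samples, 2 had more and 17 did not pass. The median log2-fold change of the 32 probes was -0.08, against 0.01 for all probes. By probe 43.8% passed, against 17.3% of all probes. The list was not tested against this share and was chosen with earlier results of these data known. Among the larger changes were those of *Tyrobp*, the adaptor DAP12 (-0.98 ± 0.49 and -0.44 ± 0.18 by 2 probes), *Vav1*, an exchange factor (-0.85 ± 0.50), and *Lcp2*, the adaptor SLP-76 (-0.78 ± 0.47). The adjusted p by limma was between 1.42e-04 and 0.00117. The kinase below CLEC-2, *Syk*, had -0.46 ± 0.23 and was lower in 12 of 12 rats (adjusted p = 4.24e-04, limma). *Plcg2*, the phospholipase that Syk activates, had -0.24 ± 0.12, also in 12 of 12 rats (adjusted p = 4.13e-04). *Card9*, the adaptor through which Mincle and MCL reach NF-κB, had -0.28 ± 0.22 (adjusted p = 0.00604). The ligand of CLEC-2 went the other way, since *Pdpn* had 0.20 ± 0.20 and was higher in 10 of 12 rats (adjusted p = 0.0262). *Vav2* also rose, by 1 of its 2 probes (0.17 ± 0.11). *Syk*, *Plcg2*, *Card9* and *Pdpn* are named for their place in the pathway, with their values already seen.

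Other C-type lectins showed no common direction. Of 31 measured genes, 3 were lower, 4 were higher and 24 did not pass, with a median of 0.02 over 35 probes. By probe 20% passed, near the 17.3% of all probes. *Olr1*, the receptor of oxidized LDL in the NKC, had -0.67 ± 0.35 by 1 probe (adjusted p = 4.61e-04, limma) and -0.01 by another. The first was well above background on 18 arrays in the syngeneic and 1 in the allogeneic channel, a pattern like that of *Clec1b*. Higher signal was found for *Cd93* (0.43 ± 0.52), *Mrc2*, a collagen receptor of fibroblasts (0.36 ± 0.23 by 1 of 2 probes), and *Asgr2*, a subunit of the asialoglycoprotein receptor (0.36 ± 0.25). Without rats 8 and 10, 11 genes of the list passed instead of 7.

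Markers of several cell types also differed between the samples, and their part in the results for *Clec1b* and *Clec4d* was not tested. The marker lists were chosen with earlier results of these data known, and those results had already named some of the genes. The shares of probes that passed are therefore given as a description. Of 18 measured platelet and megakaryocyte genes, 6 were lower, 3 were higher and 9 did not pass, with a median of -0.12 over 28 probes. By probe 60.7% passed, with *Pf4* and *Itgb3* on 6 probes each, against 17.3% of all probes. *Nfe2*, a transcription factor of megakaryocytes and erythroid cells, had -1.24 ± 0.36. *Pf4*, platelet factor 4, had -0.92 to -0.89 by 6 probes. *Treml1*, a receptor of platelet granules, had -0.54 ± 0.32. Against these, *Clu* had 0.48 ± 0.27, *Ppbp*, a chemokine of platelet granules, 0.40 ± 0.45 and *Gp1bb*, a subunit of the receptor for von Willebrand factor, 0.39 ± 0.42. *Gp5*, *Alox12* and *Selp* were well above background on at most 10 of 24 arrays in either channel. Of these, *Alox12* was counted as lower, at -0.07, and was so on 3 arrays in the allogeneic and 5 in the syngeneic channel. With the filter on probes well above background on at least 12 arrays, 8 genes passed instead of 9. The mean log2 level of the list ran from 9.13 to 9.62 in the syngeneic and from 8.85 to 9.40 in the allogeneic explants.

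Of 23 macrophage and monocyte genes, 14 were lower, 2 were higher and 7 did not pass, with a median of -0.46 over 25 probes. By probe 68% passed, against 17.3% of all probes. Earlier results of these data had already named some genes of this list, so that the share is a description and no test. The largest changes were those of *Fcgr3a*, an Fc receptor (-2.19 ± 0.40), *Trem2* (-1.69 ± 0.67), *Lst1* (-1.46 ± 0.44) and *Ctss*, cathepsin S (-1.40 ± 0.61), each in 12 of 12 rats. *C1qa* and *C1qc*, of the complement component that macrophages make, were higher, at 0.21 ± 0.21 and 0.19 ± 0.21. The mean log2 level of the list was 10.1 to 11.2 in the syngeneic and 9.85 to 10.4 in the allogeneic explants. Every probe of this list was well above background on at least 12 arrays in at least 1 of the channels. *Siglec1*, counted as lower, was so on 21 arrays in the syngeneic and 5 in the allogeneic channel. Without rats 8 and 10, 17 macrophage, 10 platelet and 15 receptor signalling genes passed, against 16, 9 and 13 with all rats.

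**Figure D4:**
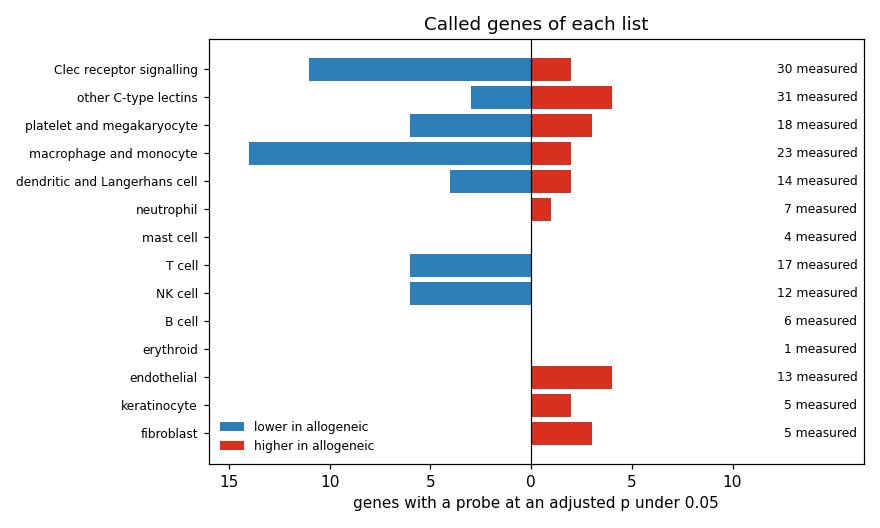
Number of genes of each list with a probe at an adjusted p under 0.05, to the left where signal was lower and to the right where it was higher in the allogeneic samples; the number of genes measured stands at the right. Lower genes prevail for Clec receptor signalling and macrophages, while endothelial, keratinocyte and fibroblast genes that passed are higher.

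Of the lymphoid lists, 6 of 17 T-cell genes and 6 of 12 NK-cell genes were lower, and none of either was higher, with medians of -0.13 and -0.21. Over all probes 8.48% passed as lower and 8.78% as higher. The lists were not tested against this share and were chosen with earlier results of these data known. Of 14 dendritic and Langerhans cell genes, 4 were lower, led by *Ccl22* (-1.02 ± 0.95), and 2 were higher, with a median of -0.14. By probe 26.1% passed. The higher ones were *Lamp3* and, by 1 of its probes, *Flt3*. *Lamp3* was well above background on 1 array in each channel. *Cd80*, counted as lower, was so on 5 arrays in the allogeneic and 11 in the syngeneic channel. With the filter on probes well above background on at least 12 arrays, 4 genes passed instead of 6. By limma no gene passed for B cells (6 measured), mast cells (4) or erythroid cells (1), and at an unadjusted p under 0.05 there were 1, 0 and 0. Of 7 neutrophil genes only *Cxcr2* passed, at 0.15 ± 0.14. Higher signal was found for 4 of 13 endothelial genes, 2 of 5 keratinocyte genes and 3 of 5 fibroblast genes, and none of these lists had a gene that passed as lower. Their medians were 0.04, 0.30 and 0.43. Among the genes that passed were *Cdh5* (0.28 ± 0.18 and 0.38 ± 0.10 by 2 probes), *Perp* (0.69 ± 0.74) and *Postn* (0.79 ± 0.62). The 5 keratinocyte probes, which check the labeled tissue, were all well above background in both channels on 24 of 24 arrays.

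**Figure D5:**
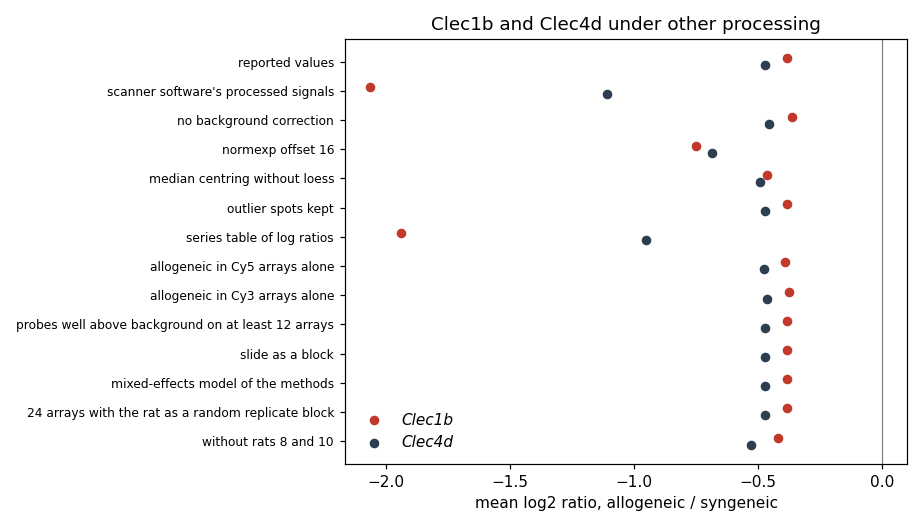
Mean log2-fold change of *Clec1b* and *Clec4d* under the reported processing and 13 other settings. All points lie left of 0; *Clec1b* spans -2.06 to -0.36 and *Clec4d* -1.11 to -0.46.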

How the data were processed

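The authors deposited 1 scanner file per array with mean spot intensities and median local background intensities of both channels, extracted per the file headers by Feature Extraction 9.5.1.1 with no normalization, and with the software's processed intensities. A further table of log2 ratios was deposited, whose 24 columns all correlated positively with the allogeneic over syngeneic ratio of the processed intensities (0.704 to 0.959) and had medians between -0.03 and 0.05. Its background treatment is not given in the sources used here, although limma is named per the labels.

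In R 4.3.3 with limma 3.58.1, mean intensities were corrected by normexp (offset 50) and normalized by loess within arrays, with no weight for control and outlier spots, which were then dropped. Arrays were turned to allogeneic over syngeneic, spots of a probe and then the 2 arrays of a rat were averaged, and limma tested 12 rats against 0, adjusted over 8453 probes. Levels were taken per channel after loess and Aquantile scaling. RefSeq (GRCr8) named 4893 probes, and 3560 kept the file's name. Named were all *Clec* genes, up to 4 called genes of each list with the largest change, and the 5 (*Clec1b*) or 3 genes most similar by Pearson's r. One listed gene that this rule names is not reported here. Members, lists and tests were chosen with earlier results of these data known. The limma, mixed-effects and block fits were tested on simulated data. Probes well above background made up 74.8% to 99.9% per channel and array, and the number of rats limits the precision.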

Additional observations from a re-analysis of the deposited data

How the results depend on the processing

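Under 13 alternatives that kept all rats or left out rats 8 and 10, and without each rat in turn, *Clec1b* and *Clec4d* kept their direction and passed limma's or the alternative's test. The exact permutation of the signs gave p = 0.00146 for *Clec1b* and 4.88e-04 for *Clec4d*. Of the 13 alternatives, 1 was the filter on probes well above background on at least 12 arrays. It kept *Clec1b* only through the syngeneic side and left its value at -0.38, so that it is no further test of *Clec1b*. Without each rat in turn the *Clec1b* value ran from -0.44 to -0.34 (adjusted p 0.00102 to 0.0114) and that of *Clec4d* from -0.51 to -0.43. The number of *Clec* genes that passed was 2 without each rat, and the number of probes ran from 1155 to 2087. With the allogeneic in Cy5 arrays alone 4 *Clec* genes and 2659 probes passed, and with the allogeneic in Cy3 arrays alone 2500 probes, against 1459 with both. Without rats 8 and 10, 3 *Clec* genes passed. In the 24-array fit with the rat as a random replicate block, 1729 probes passed and *Clec1b* had an adjusted p of 5.55e-05. With the mixed-effects model of the methods it was 0.00977, and with the slide as a block 0.0105. No other paired analysis applies, since both samples of a rat lie on each array. Signal over background limits the size of the *Clec1b* change, since *Clec1b* was seen above background in the allogeneic channel on 1 of 24 arrays. None of these alternatives bears on the dye labels, from which every sign comes.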
